A study of Mus musculus with 6 samples.

Results

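The sirtuins, the NAD+-dependent deacylases Sirt1 to Sirt7, were measured in muscle stem cells of adult and young mice. Members were all non-control probes whose gene name in the array files is exactly Sirt1 to Sirt7. That gave 10 probes of 7 genes among the 55681 probes of the array. Sirt4, Sirt6 and Sirt7 had 2 probes each, and the other 4 genes had 1 probe each. All 10 probes were well above background on all 6 arrays, so none was lost to the filter that left 48431 probes for testing.

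The source was skeletal muscle of male C57BL/6 mice, from which satellite cells, its resident stem cells, were sorted. There were 3 samples from adult mice, all aged 6 months, and 3 from young mice, aged 3, 2 and 3 months for replicates 1, 2 and 3. The labels name no transgene, deletion or treatment for either group. Sorting kept cells carrying integrin alpha7 and CD34 and removed cells carrying CD31, CD45, CD11b or Sca1. RNA was amplified by a whole transcriptome method made for small cell numbers, labelled with Cy3 and hybridised to 1 single-colour Agilent array per sample. The labels call the samples biological replicates without saying how many mice stand behind each, so p-values measure the spread between these samples. The study's aim, as its design text gives it, was to follow gene expression of these cells during aging.

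Sirtuins remove acetyl and other acyl groups from lysines and consume NAD+ in doing so, which ties their activity to the supply of that cofactor. Sirt1, Sirt6 and Sirt7 are mainly nuclear, Sirt2 is mainly cytosolic, and Sirt3, Sirt4 and Sirt5 are mitochondrial. In mouse satellite cells Sirt1 is known as a histone deacetylase whose activity depends on the NAD+ level and bears on the step out of quiescence.

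The promoters of Sirt2, Sirt4 and Sirt1 are shown because the first 2 genes gave the probes that passed the test and Sirt1 was the only gene whose single or brighter probe had a positive difference. Each line gives a window of 300 bases around the gene's start, 5′ to 3′ on the strand of the gene, from RefSeq on GRCm38.p6. Capitals mark ACTACA or its reverse complement in Sirt2 and Sirt4, and CACGTG in Sirt1.
Sirt2, chr7:28766502-28766801, plus strand: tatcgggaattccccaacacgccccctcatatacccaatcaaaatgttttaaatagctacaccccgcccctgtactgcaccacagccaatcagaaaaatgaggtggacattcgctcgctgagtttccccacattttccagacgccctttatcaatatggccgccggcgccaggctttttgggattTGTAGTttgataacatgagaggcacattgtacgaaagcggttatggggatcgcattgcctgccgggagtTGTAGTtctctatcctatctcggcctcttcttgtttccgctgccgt
Sirt4, chr5:115484248-115484547, minus strand: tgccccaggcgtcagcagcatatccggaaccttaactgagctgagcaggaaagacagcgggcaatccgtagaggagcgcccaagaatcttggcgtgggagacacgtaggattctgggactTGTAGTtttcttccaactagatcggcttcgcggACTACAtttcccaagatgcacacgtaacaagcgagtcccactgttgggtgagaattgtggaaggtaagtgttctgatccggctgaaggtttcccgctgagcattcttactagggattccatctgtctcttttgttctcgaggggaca
Sirt1, chr10:63338986-63339285, minus strand: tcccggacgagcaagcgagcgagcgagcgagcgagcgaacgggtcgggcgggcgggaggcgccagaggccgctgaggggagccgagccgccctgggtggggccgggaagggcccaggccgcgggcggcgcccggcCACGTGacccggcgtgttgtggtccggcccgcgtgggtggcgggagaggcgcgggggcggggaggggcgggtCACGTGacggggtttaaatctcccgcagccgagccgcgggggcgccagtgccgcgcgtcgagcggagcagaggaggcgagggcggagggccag
The letters were picked after the sequences had been read, so they describe these windows and test nothing. The Sirt2 window holds ACTACA 2 times and the Sirt4 window 2 times, counting both strands. Among 32851 windows of 300 bases in the RefSeq promoter table, 10.3% hold it at least once and 1.25% hold it 2 or more times. None of the other 5 sirtuins has it. CACGTG, which reads the same on both strands, occurs 2 times in the Sirt1 window, and 0.594% of all windows hold it 2 or more times. Of the 7 genes, Sirt3, Sirt6 and Sirt7 hold CCGGAAG, found in 8.86% of windows, and no sirtuin window holds TATAAA, found in 13.6%. All were searched on both strands, and no sirtuin window holds more than 1 of the 4 motifs, so none overlap.

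Levels below are log2 of the processed signal minus the 75th percentile of the array, and differences are adult minus young on that log2 scale. Tests are limma's moderated test with Benjamini-Hochberg adjustment over all 48431 probes at a threshold of 0.05. Of all probes, 23.5% passed, 17.1% higher and 6.39% lower in adult, with a median difference of 0.29. That split depends on the scaling. There were 8274 higher and 3096 lower calls here, against 3277 and 3798 after quantile normalization, 4826 and 12213 after median scaling, 5653 and 6069 in the deposited series matrix, and 3494 and 2822 after cyclic loess. With the percentile taken over probes well above background on all arrays they were 10328 and 2020. The median of all probes was -0.12 after quantile normalization, -0.25 after median scaling, -0.05 in the series matrix, -0.02 after cyclic loess and 0.43 with that other percentile. Adult arrays also had more probes well above background, 47607 to 49982 against 41562 to 45946 on young arrays. Probes of protein-coding genes had a median of -0.06, and 9.9% of them passed as lower.

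Most sirtuin probes read lower in adult cells, and 2 of the 10 probes passed the test, both lower: Sirt2 and the brighter probe of Sirt4. No sirtuin probe passed as higher here. The dimmer Sirt6 probe did in 3 alternative settings, among them the other percentile, which gave 1 higher and 2 lower. The share of 20% called lower stands beside 6.39% of all probes and 9.9% of protein-coding probes. Probes were also put in 4 equal classes of mean level, class 4 being the highest. Class 4 holds Sirt2 and the brighter Sirt4, Sirt6 and Sirt7 probes. Of these the first 2 passed, and 20.4% of protein-coding probes in class 4 were called lower. The other sirtuin probes lie in class 3, where none of them passed and 11% of protein-coding probes were called lower. Differences were negative for 8 probes and positive for 2, with a median of -0.75, against -0.26 and -0.45 for protein-coding probes in classes 3 and 4, where all 10 sirtuin probes lie. At an unadjusted p under 0.05 there were 6 probes, of which 1, the dimmer Sirt6 probe, was higher. Leaving out young replicate 2 kept the count of 2 lower probes, and leaving out any other single array brought it to 0. Adult and young values did not overlap for 8 of the 10 probes, or 80%, against 52.6% of all probes. In sorted bulk samples, fewer cells of a type and less RNA per cell cannot be told apart.

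**Figure D1:**
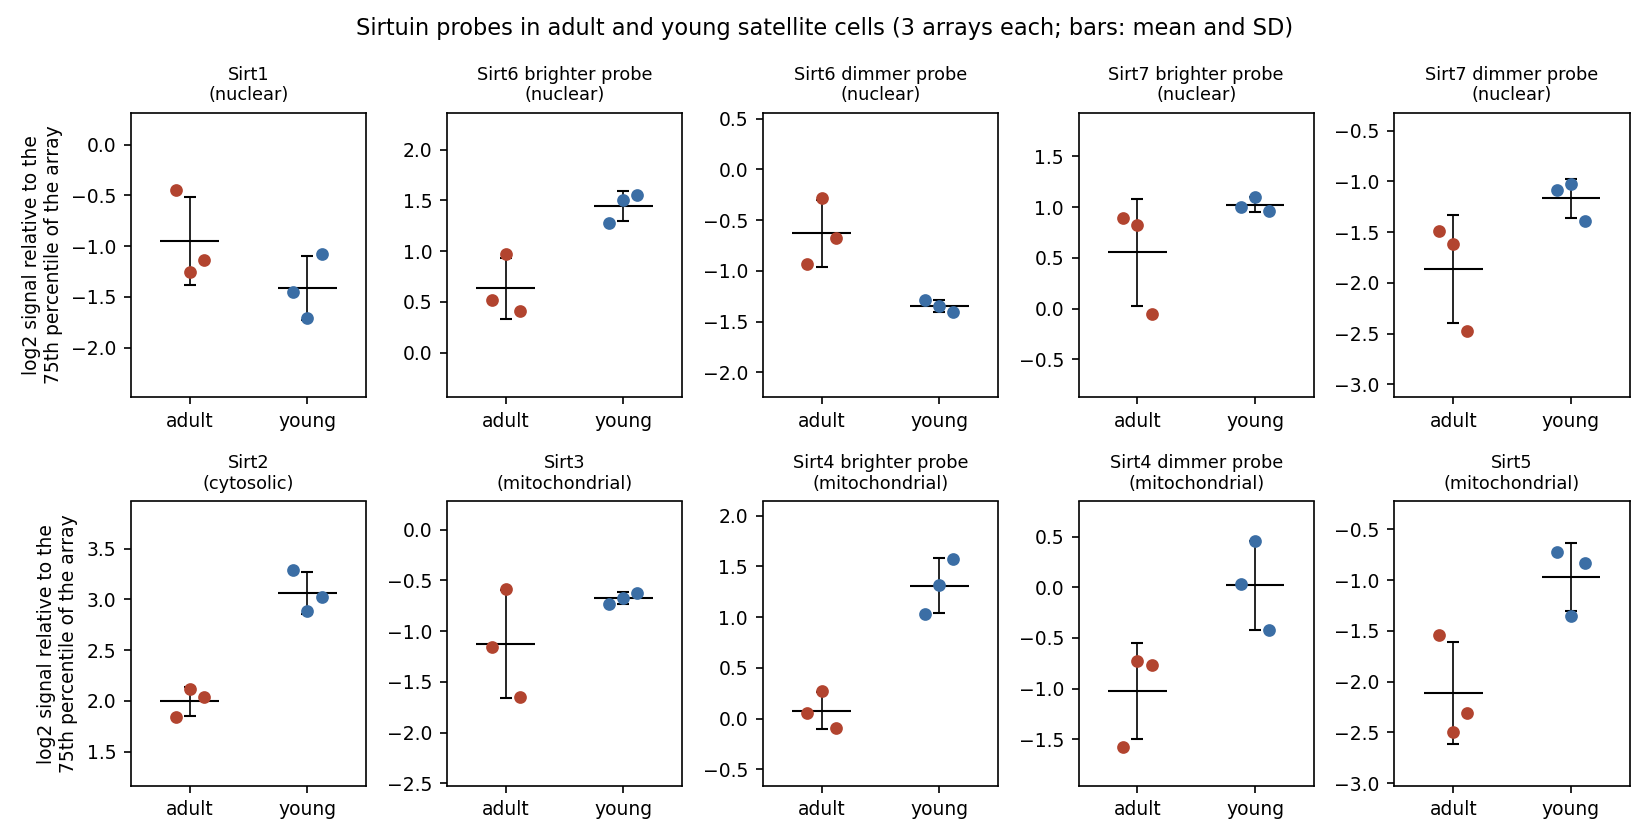
Level of each sirtuin probe on each array, as log2 signal relative to the 75th percentile of the array, in 3 adult (left, red) and 3 young (right, blue) samples, with mean and SD. Groups do not overlap for 8 of 10 probes, the adult mean lies above the young mean for Sirt1 and the dimmer Sirt6 probe, and Sirt1's order turns under median scaling.

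Among the nuclear sirtuins none of the 5 probes passed, and their median difference was -0.47. Sirt1, a deacetylase of histones, p53 and Foxo factors, stood at -0.45, -1.26 and -1.14 on adult arrays, against -1.45, -1.71 and -1.08 on young arrays (probe at chr10:62781827-62781886, mm9). Adult replicate 1 was the highest of the 6, and the groups overlapped. The means were -0.95 ± 0.44 in adult and -1.41 ± 0.32 in young (SD, n = 3 each). The difference of 0.46 ± 0.30 (SE) had a 95% interval of -0.27 to 1.20 (limma adjusted p = 0.268), and it turned to -0.08 under median scaling, so no direction can be given.

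Sirt7, a deacetylase tied to ribosomal gene transcription in the nucleolus, has 2 probes, of which the brighter lies at chr11:120479736-120479795 (mm9). That probe read 0.89, 0.82 and -0.05 in adult samples and 0.998, 1.10 and 0.964 in young samples. The young values lay close together while adult replicate 3 was well under the rest, and the groups did not overlap. The difference was -0.47 ± 0.30 (SE, limma adjusted p = 0.259, n = 3 each). At chr11:120485809-120485868 the dimmer probe read -1.49, -1.62 and -2.48 in adult samples, against -1.09, -1.03 and -1.39 in young samples, again with adult replicate 3 lowest and no overlap. Its difference was -0.70 ± 0.31 (SE, limma adjusted p = 0.136).

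Sirt6, a deacetylase and mono-ADP-ribosyltransferase at chromatin with roles in DNA repair and glucose metabolism, gave opposite signs with its 2 probes. The brighter probe (chr10:81084850-81084909, mm9) read 0.52, 0.98 and 0.41 in adult samples, against 1.28, 1.50 and 1.55 in young samples, with every adult value under every young one. Its difference was -0.81 ± 0.23 (SE, 95% interval -1.37 to -0.25, limma adjusted p = 0.0504). The dimmer probe (chr10:81084531-81084589, mm9) read -0.94, -0.28 and -0.67 in adult samples and -1.28, -1.35 and -1.41 in young samples, with every adult value above every young one. Here the difference was 0.71 ± 0.23 (SE, 95% interval 0.16 to 1.27, limma adjusted p = 0.0652). Neither probe passed the threshold.

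Stretches of 30 bases from both Sirt6 probes of 60 bases are shown, since the sign of the Sirt6 difference turns on which probe is read. The brighter probe targets position 1324 and the dimmer probe position 1644 of the transcript, per the array files. Capitals mark AATAAA, the letters of the common polyadenylation signal, searched on the probe strand alone.
Sirt6 brighter probe, bases 31 to 60: tacaccatgtccaacacagctcctttcttc
Sirt6 dimmer probe, bases 17 to 46: agctcccaatgcAATAAAtacaaaatccct
AATAAA occurs in 10.1% of the 55681 probes, and among the sirtuins also in the Sirt3 probe. A match is a description of these letters and not of a used site.

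Both Sirt6 probes were read on the same array, so scaling by a constant leaves the distance between them as it is. On the log2 scale the brighter probe exceeded the dimmer by 1.46, 1.26 and 1.08 on adult arrays and by 2.56, 2.85 and 2.96 on young arrays. The distance was 1.27 ± 0.19 in adult and 2.79 ± 0.20 in young (SD, n = 3 each), a difference of -1.52 with no overlap. An exact two-sided permutation test over the samples gave p = 0.1, the smallest value that 3 samples against 3 allow. Sirt4 and Sirt7 are the other sirtuins with 2 probes. For Sirt4 the distance was 1.63, 1.001 and 0.68 on adult arrays and 1.002, 0.87 and 2.00 on young arrays, which overlap (difference -0.19, exact permutation p = 0.6, n = 3 each). For Sirt7 it was 2.39, 2.44 and 2.43 on adult arrays, against 2.09, 2.13 and 2.35 on young arrays (difference 0.23, exact permutation p = 0.1, n = 3 each). Adjusted over the 3 genes compared, the exact permutation p was 0.15 for Sirt6, 0.15 for Sirt7 and 0.6 for Sirt4.

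Across the array, 4073 protein-coding genes had at least 2 probes that were well above background on all arrays, and the 2 brightest of each were compared. Their median absolute change of distance was 0.30. A change at least as large as that of Sirt6 was seen in 3.36% of them, and a change of -1.52 or lower in 2.01%. The groups did not overlap in 23.6%. Among the 874 genes whose brighter and dimmer probes lay in the same level classes as those of Sirt6, 2.86% had a change at least as large. Over 18 alternative settings the Sirt6 change lay between -1.64 and -1.07, negative in each.

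**Figure D2:**
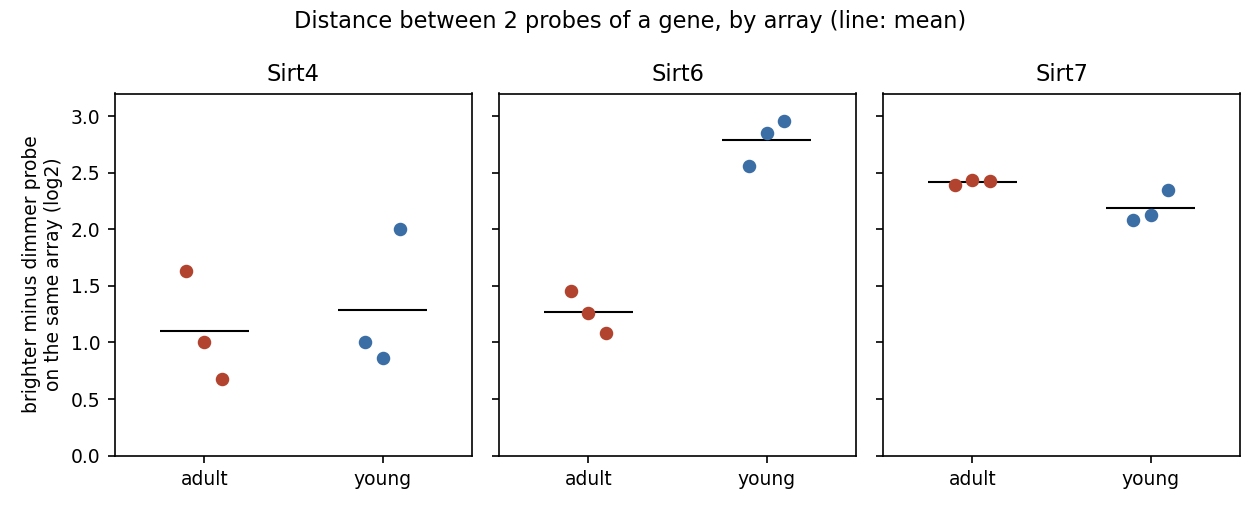
Distance on the log2 scale between the brighter and the dimmer probe of Sirt4, Sirt6 and Sirt7 on the same array, for 3 adult (left, red) and 3 young (right, blue) arrays, with the mean as a line. The Sirt6 distance is 1.08 to 1.46 on adult arrays and 2.56 to 2.96 on young arrays, while the Sirt4 values of the groups overlap.

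Sirt2, the cytosolic sirtuin and a deacetylase of alpha-tubulin, was lower in adult satellite cells. Its probe (chr7:29573375-29573434, mm9) read 1.84, 2.12 and 2.03 in adult samples, against 3.29, 2.89 and 3.02 in young samples. The adult values lay close together, well under the lowest young value, that of replicate 2. Means were 2.00 ± 0.14 in adult and 3.07 ± 0.20 in young (SD, n = 3 each). Sirt2 was therefore 2.10-fold lower (difference -1.07 ± 0.20 SE, 95% interval -1.57 to -0.57, limma adjusted p = 0.0277). The call was lost when any array other than young replicate 2 was left out, with adjusted p between 0.0627 and 0.0811, and after cyclic loess (-0.79, adjusted p = 0.0510).

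The mitochondrial sirtuins had 4 probes, all with negative differences and a median of -1.09, of which 1 passed the test. Sirt4, known as a mitochondrial ADP-ribosyltransferase and lipoamidase that restrains glutamate use, was lower in adult by its brighter probe (chr5:115929657-115929716, mm9). That probe read 0.06, 0.27 and -0.09 in adult samples and 1.03, 1.32 and 1.58 in young samples, with a wide gap between the groups. Means were 0.08 ± 0.18 in adult and 1.31 ± 0.27 in young (SD, n = 3 each), and the probe was 2.35-fold lower (difference -1.23 ± 0.23 SE, 95% interval -1.78 to -0.68, limma adjusted p = 0.0263). Leaving out any array other than young replicate 2 ended this call too, with adjusted p between 0.0541 and 0.0818.

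The dimmer Sirt4 probe (chr5:115928163-115928222, mm9) read -1.57, -0.73 and -0.77 in adult samples, against 0.03, 0.46 and -0.43 in young samples. Its groups did not overlap either, and its difference of -1.04 ± 0.35 (SE, limma adjusted p = 0.0702) was of like size without passing. Both probes of Sirt4 thus had the same sign.

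Sirt5, which removes succinyl, malonyl and glutaryl groups from mitochondrial enzymes, read -1.55, -2.49 and -2.31 in adult samples and -0.73, -1.35 and -0.83 in young samples (chr13:43490351-43490410, mm9). The groups lay apart, with adult replicate 1 and young replicate 2 nearest to each other. The means of -2.12 ± 0.50 in adult and -0.97 ± 0.33 in young (SD, n = 3 each) differed by -1.15 ± 0.33 (SE, 95% interval -1.95 to -0.35), just short of the threshold (limma adjusted p = 0.0515). It passed in 9 of 19 alternative settings, while its direction was the same in all 19.

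Sirt3, the main deacetylase of the mitochondrial matrix, read -1.16, -0.59 and -1.65 in adult samples and -0.73, -0.67 and -0.62 in young samples (chr7:148049581-148049640, mm9). The young values were nearly equal, and adult replicate 2 lay among them, so the groups overlapped. The difference of -0.45 ± 0.30 (SE) had a 95% interval of -1.19 to 0.28 (limma adjusted p = 0.274).

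**Figure D3:**
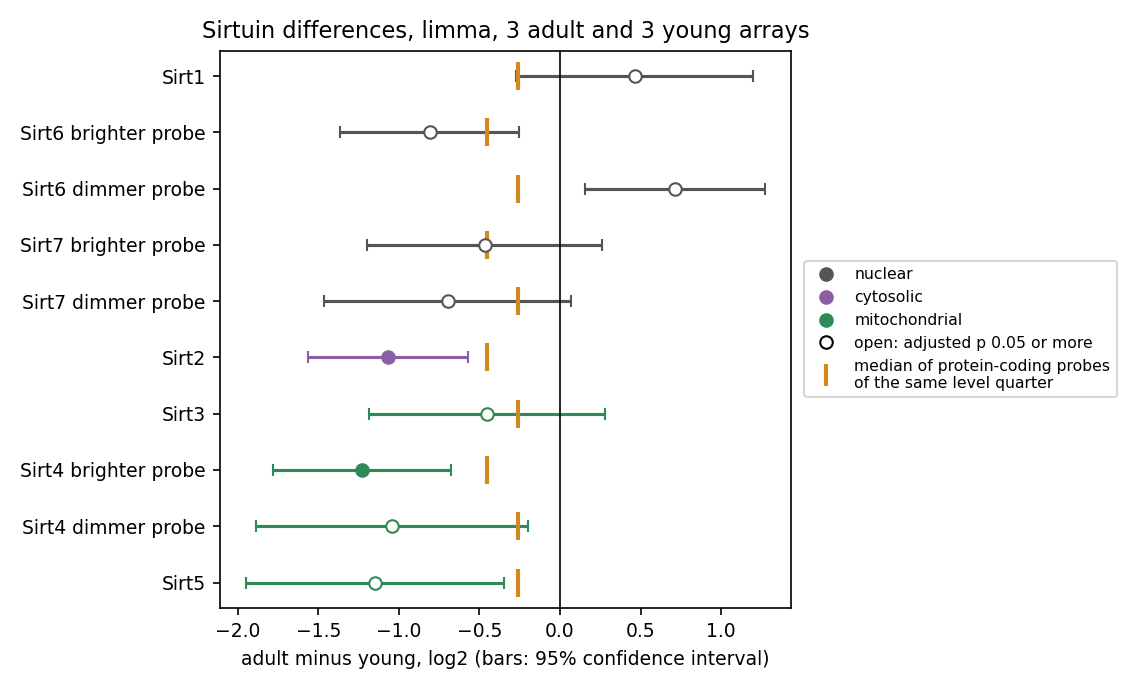
Difference, adult minus young, on the log2 scale for the 10 sirtuin probes, with 95% confidence intervals from limma (3 adult and 3 young arrays). Filled points are Sirt2 and the brighter Sirt4 probe, the 2 that passed the adjusted threshold of 0.05, and short bars give the median of protein-coding probes in the same class of level, -0.26 or -0.45.

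The 7 genes, each by its brighter or only probe, also varied together from array to array to differing degrees. Over the 6 arrays Pearson's r was 0.97 between Sirt4 and Sirt6, 0.90 between Sirt2 and Sirt4 and 0.42 between Sirt3 and Sirt5. Sirt1 had a negative r with each of the other 6, between -0.13 and -0.65. These values include each gene's difference between the groups, which is positive for Sirt1 and negative for the others, so they are given as descriptions. Among 17104 other named genes, those most like Sirt2 over the 6 arrays were Ap2m1, Pex3 and Psmd9, with r from 0.997 to 0.998. Sap130, Polr3e and Ddb1 were most like Sirt4 (0.997 to 0.998), and Nxt1, Timm22 and Tnk2 most like Sirt5 (0.993 to 0.995). Sirt3 was nearest to P2rx6, Asb6 and Flot2 (0.989 to 0.999). For Sirt1 the nearest were Cxcl12, Acer3 and Gbp5 (0.976 to 0.986), for the brighter Sirt6 probe Pygm, Canx and Tmem88b (0.997 to 0.999), and for the brighter Sirt7 probe Akap11, Fgfr4 and Col5a2 (0.992 to 0.996). Each is the top of 17104 values taken over only 6 arrays.

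Genes around the sirtuins were read by their brightest kept probe each. Of those probes for protein-coding genes, 13.4% passed as higher and 9.98% as lower in adult, with a median of -0.02. These shares depend on level. Of all protein-coding probes in class 4, 4.23% were called higher and 20.4% lower, with a median of -0.45. In class 1, 26.2% were called higher and 1.02% lower, with a median of 1.33. The lists were not matched for level. The 24 genes of NAD+ metabolism had 3 higher, 1 lower and 20 that did not pass, and a median of -0.18. That split turned with the scaling, to 2 higher and 4 lower after quantile normalization and in the series matrix, and to 1 higher and 6 lower after median scaling. After cyclic loess it was 3 and 0. Leaving out adult replicate 1, 2 or 3 or young replicate 1 brought the count of passing genes to 0 in this list and in the 3 lists below. Without young replicate 3 it was 1 for NAD+ metabolism, 2 for mitochondrial targets and 0 for the other 2 lists, and without young replicate 2 it was 4 for NAD+ metabolism, 6 for mitochondrial targets, 2 for nuclear partners and 1 for the zinc-dependent deacetylases. Nampt, the rate-limiting enzyme of NAD+ salvage, differed by 0.06 ± 0.28 (SE, limma adjusted p = 0.880). Nmnat1, the nuclear enzyme that completes NAD+ synthesis, rose by 1.15 ± 0.22 (adjusted p = 0.0275), and Nmrk1, a nicotinamide riboside kinase, by 1.07 ± 0.25 (adjusted p = 0.0360). After median scaling neither passed, with Nmnat1 at 0.61 (adjusted p = 0.0710) and Nmrk1 at 0.53 (adjusted p = 0.135), and Nmrk1 also missed the threshold with the array's row on the slide as a block (adjusted p = 0.0588). Bst1, an ectoenzyme that degrades NAD+, was not well above background on any young array. It passed the filter through the adult arrays alone, and it is among the 3 higher genes counted here. Its fitted value was 9.27-fold higher in adult (adjusted p = 0.0237), a call that is therefore no independent support for a rise. The call was lost after quantile normalization (1.78, adjusted p = 0.0894) and in the series matrix (0.49, adjusted p = 0.0788). The Bst1 fold rests on young signals that were not well above background, so its size is uncertain. A dimmer Bst1 probe was also higher, by 3.65 ± 0.25 (adjusted p = 0.00894). Whether that probe was well above background on young arrays is not given here. Cd38, the related NAD+ glycohydrolase, differed by 1.31 ± 0.38 and missed the threshold (adjusted p = 0.0538), as did the NAD+ consumer Parp1 at -0.67 ± 0.20 (adjusted p = 0.0546), and each passed in 6 of 19 alternatives. Nadk, which makes NADP+ from NAD+, fell by 1.002 ± 0.20 (adjusted p = 0.0295), while its other probe at -0.79 did not pass (adjusted p = 0.0503). The Nadk call was lost with the row block (adjusted p = 0.0531) and after cyclic loess (adjusted p = 0.0536).

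Of 24 genes listed as targets of the mitochondrial sirtuins, 23 were tested, Otc being too dim. Lower in adult were 6, higher 1, and 16 did not pass, with a median of -0.56. Protein-coding probes in classes 3 and 4 had medians of -0.26 and -0.45, with 11% and 20.4% called lower. With the percentile over probes well above background on all arrays there were 3 higher and 5 lower. Idh2, the NADP+-linked isocitrate dehydrogenase that Sirt3 deacetylates, fell by 1.06 ± 0.20 (SE, limma adjusted p = 0.0269). Acadl, a dehydrogenase of fatty acid oxidation, fell by 1.44 ± 0.30 (adjusted p = 0.0305), and Slc25a5, an ADP/ATP carrier, by 1.30 ± 0.24 (adjusted p = 0.0262). Atp5o of ATP synthase differed by -1.38 ± 0.22 (adjusted p = 0.0216) and Ndufa9 of complex I by -1.25 ± 0.26 (adjusted p = 0.0302), both lower. With array row as a block, Acadl (adjusted p = 0.0534) and Ndufa9 (adjusted p = 0.0532) missed the threshold. Uox, urate oxidase, was the higher one at 3.09 ± 0.56 (adjusted p = 0.0257), and its other probe did not pass (2.16, adjusted p = 0.0637). Sod2, a mitochondrial superoxide dismutase, differed by -0.56 ± 0.33 (adjusted p = 0.219).

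Partners and targets of the nuclear sirtuins numbered 26, of which 3 were higher, 2 lower and 21 did not pass (median -0.23). Here too the split turned with the scaling, to 1 higher and 3 lower after quantile normalization and after cyclic loess, 1 and 5 in the series matrix, and 0 and 12 after median scaling. Trp53, the gene of p53, fell by 0.96 ± 0.24 (SE, limma adjusted p = 0.0384), and Kat2a, a histone acetyltransferase, by 0.85 ± 0.21 (adjusted p = 0.0399), with its other probe also passing at -0.77 (adjusted p = 0.0408). Quantile normalization and cyclic loess ended the calls of Trp53 (adjusted p = 0.0679 and 0.0772) and of the brightest Kat2a probe (adjusted p = 0.0631 and 0.0829), which passed in 8 and 9 of 19 alternatives. The clock repressor Per2 was higher by 1.18 ± 0.32 (adjusted p = 0.0469) but passed in only 8 of 19 alternatives, and stood at 0.64 after median scaling (adjusted p = 0.191). Hic1, a repressor of Sirt1 transcription, was higher by 1.42 ± 0.27 by its brightest probe (adjusted p = 0.0276) and the hypoxia factor Hif1a by 0.90 ± 0.21 (adjusted p = 0.0360). Hic1 passed in 9 and Hif1a in 7 of 19 alternatives. After quantile normalization, median scaling and in the series matrix Hic1 was at 0.83, 0.88 and 0.54 and Hif1a at 0.58, 0.36 and 0.47, and neither passed in any of the 3. For both genes the other probe had the opposite sign and did not pass, at -0.56 (adjusted p = 0.226) for Hic1 and -0.47 (adjusted p = 0.191) for Hif1a. Ppargc1a, a coactivator of mitochondrial genes, differed by 0.48 ± 0.24 (adjusted p = 0.167), Foxo3 by -0.05 ± 0.24 (adjusted p = 0.874) and Kat2b by -0.32 ± 0.18 (adjusted p = 0.204).

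The zinc-dependent histone deacetylases, which need no NAD+, were set beside the sirtuins as the other deacetylase family. Of 11 genes, 3 were lower, none was higher and 8 did not pass, with a median of -0.43. At an unadjusted p under 0.05 there was 1 higher gene, and in the series matrix 1 gene passed as higher and 4 as lower. Hdac2 fell by 1.09 ± 0.22 (SE, limma adjusted p = 0.0290), Hdac11 by 1.36 ± 0.37 (adjusted p = 0.0473) and Hdac4 by 0.71 ± 0.18 (adjusted p = 0.0425), whereas Hdac1 differed by -0.43 ± 0.19 (adjusted p = 0.126). The other Hdac1 probes, at -0.02 (adjusted p = 0.934) and -0.64 (adjusted p = 0.0648), did not pass either. Hdac11 passed in 6 and Hdac4 in 7 of 19 alternatives, and Hdac2 in 13. Whether the sirtuins and this family differ in their change was not tested.

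**Figure D4:**
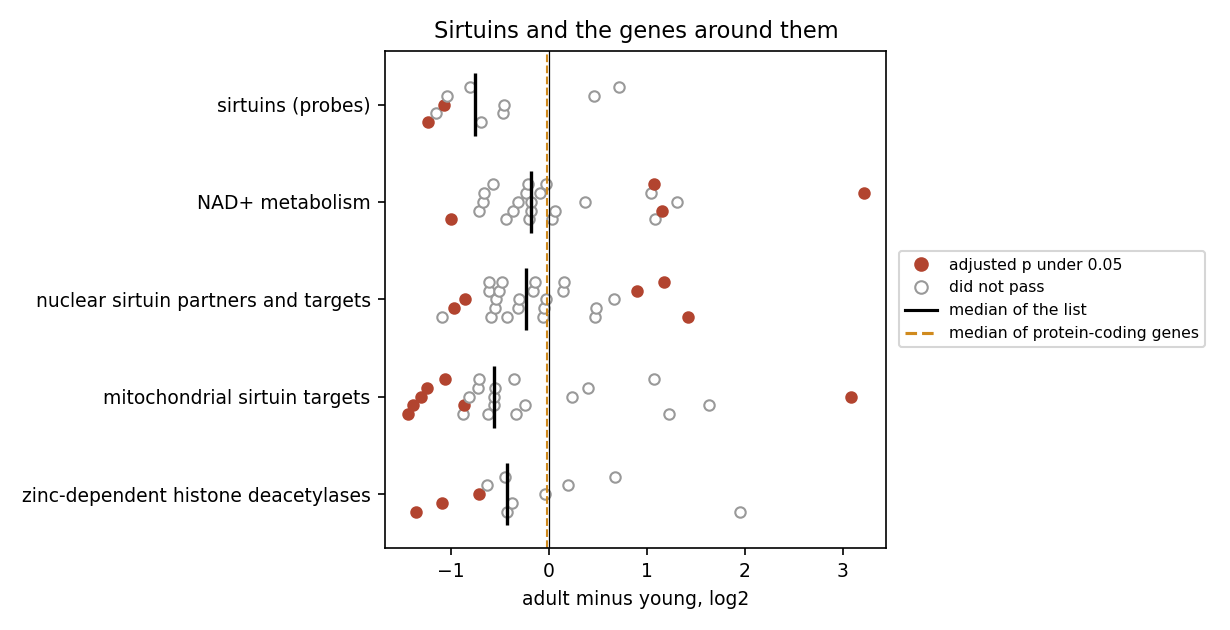
Difference, adult minus young, on the log2 scale for the 10 sirtuin probes and for the brightest probe of each gene in 4 lists, with filled points past the adjusted threshold of 0.05 and a bar at each list's median. Bst1, the point farthest right under NAD+ metabolism, is drawn at its fitted value. The medians run from -0.75 for the sirtuin probes to -0.18 for NAD+ metabolism. The dashed line is the median of protein-coding genes of all levels, -0.02, and is not matched to the levels of the lists.

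Markers of other cell types also moved with the groups. Beside the counts below, 13.4% of all protein-coding genes passed as higher and 9.98% as lower by their brightest probe. In class 4, 20.4% of protein-coding probes were called lower. The marker lists were not matched for level. Of 10 satellite cell markers, 4 passed as lower (Cdh15, Itga7, Megf10 and Vcam1) and none as higher, while 5 had an unadjusted p under 0.05, all lower. The gate's Itga7 fell by 1.08 ± 0.20 (SE, limma adjusted p = 0.0262), while Pax7 differed by -0.34 ± 0.26 (adjusted p = 0.324) and Cd34 by -0.18 ± 0.22 (adjusted p = 0.546). Myf5 differed by -0.37 ± 0.23 (adjusted p = 0.243), ran from -1.34 to -0.09 over the alternatives and passed as lower in 4 of 19, among them quantile normalization (adjusted p = 0.0396) and median scaling (adjusted p = 0.0398). Of 6 mural markers, Kcnj8, Abcc9, Pdgfrb and Rgs5 were 11.98-, 5.17-, 4.38- and 3.65-fold higher in adult, and Acta2 was 4.30-fold lower. Of 8 leukocyte markers, Adgre1 was 4.98-fold and Cd14 2.21-fold higher. Tyrobp, not well above background on any young array, was 54.1-fold higher by its fitted value, so the size of that fold is uncertain. Tyrobp passed the filter through the adult arrays alone, so its call is no independent support for a rise. Ptprc, which encodes CD45, differed by 0.49 ± 0.34 (adjusted p = 0.293). These markers were read by their brightest probe. The dimmer probes of Adgre1 (2.10, adjusted p = 0.101) and Vcam1 (-0.78, adjusted p = 0.0551) had the same sign and did not pass. A dimmer probe of Itgam (1.46, adjusted p = 0.0361) and of Csf1r (1.35, adjusted p = 0.0277) passed as higher. The brightest probes of Itgam (0.39, adjusted p = 0.323) and Csf1r (0.37, adjusted p = 0.175) did not. Neither did the remaining probe of Itgam (1.46, adjusted p = 0.0705) or of Csf1r (0.38, adjusted p = 0.570). The brightest Itgam probe read 8.51 to 8.61 on adult arrays and 7.72 to 8.70 on young arrays. Sorting had removed cells carrying CD11b, which Itgam encodes, and what this probe measures was not tested. Of 4 adipocyte markers, Adipoq and Cfd were higher. Plin1 (0.78, adjusted p = 0.434) and Fabp4, with the opposite sign (-0.49, adjusted p = 0.593), did not pass. Of 7 myofibre markers Myh2 was higher and Acta1 and Myh1 lower. A dimmer probe of the myofibre marker Pvalb also passed as higher (1.47, adjusted p = 0.0450), while its brightest probe did not (0.01, adjusted p = 0.976). None of 6 endothelial and none of 5 tested fibro-adipogenic markers passed, with 0 and 3 of them at an unadjusted p under 0.05. Apart from Plin1 and Fabp4, which complete their list, markers named here beyond Pax7, Myf5, Itga7, Cd34 and Ptprc were picked because they passed.

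The summed levels of these lists add probes of unlike brightness, and most sums rest largely on 1 probe, so they are given for completeness and say little of the other markers. The sums are linear, in multiples of the 75th percentile. Satellite cell sums were 100.9 to 135.0 in adult and 136.4 to 154.6 in young samples, with Chodl making up 53.8% to 65.4%. Leukocyte sums were 377.9 to 402.0 in adult and 219.2 to 424.8 in young, of which Itgam was 96% to 97.8%. Mural sums were 14.1 to 22.3 in adult and 14.4 to 19.4 in young, with an Acta2 share of 12.2% to 83%, so opposite changes are added in them. Sums were 3.38 to 16.6 in adult and 6.81 to 10.6 in young for adipocyte markers, and 4.81 to 6.69 in adult and 6.25 to 9.96 in young for myofibre markers. They were 16.7 to 23.6 in adult and 17.3 to 27.5 in young for endothelial markers, and 10.3 to 14.0 in adult and 18.9 to 27.6 in young for fibro-adipogenic markers. The part of these markers in the sirtuin differences was not tested.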

How the data were processed

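The 3 adult and 3 young samples of satellite cells were each measured on 1 Agilent array of 62976 spots. The authors deposited scanner output from Feature Extraction 10.7.3.1, and the deposited intensity values, per the file headers, were background-subtracted and detrended, with surrogate values for spots not above background and no scaling between arrays. The deposited series matrix holds log2 values. The sources used here do not say how the authors made it. Normexp (offset 50) followed by quantile normalization of the mean and background intensities gave the same values to within 0.000106. Its median was 7.56 in each column, and scale and direction follow from that match.

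Control spots (3671) and outlier-marked spots were dropped, and spots sharing a probe were averaged. Probes well above background on at least 3 of the 6 arrays were kept. Processed signals were taken to log2 and the 75th percentile of the array was subtracted, and adult and young were compared per probe with limma 3.58.1 in R 4.3.3 (files read with data.table, version 1.17.8). Intervals are at 95%. The 4 classes of level divide kept probes equally by their mean over the arrays. Older gene names were updated through RefSeq (26300 probes by accession, 2044 by current and 355 by older symbol, 26982 unchanged). The array files give probe positions on mm9.

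The members, the 4 gene lists and the marker lists were chosen with earlier results of these data known. Genes were named by rule: all sirtuin probes, up to 6 members of each list past the threshold with the smallest p, 11 fixed genes, 5 marker genes, and the 3 genes most correlated with each sirtuin. Alternatives changed the scaling, the background correction, the filter, the rule for probes, the variance model, the array weights, the blocks, or the arrays used. Cyclic loess was added after the data were seen. A single slide held all arrays, in a single scan. On simulated arrays of 48397 probes with 200 changed, the test called 0% of the 1-unit log2 changes, 16.2% of the 2-unit and 60% of the 4-unit ones, with 0 false calls. In the data 23.5% of probes passed, and the Benjamini-Hochberg cut is stricter where fewer probes change. The simulated shares therefore do not give the power of the test in the data. The number of arrays limits the precision.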

Additional observations from a re-analysis of the deposited data

How the results depend on the processing

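The 19 alternatives were run on every sirtuin probe that the setting kept. Sirt2 stayed negative in 19 of 19 (-1.61 to -0.73) and past the threshold in 12. The brighter Sirt4 probe stayed negative in 19 of 19 (-1.77 to -1.03) and past it in 13. Sirt5 was negative throughout and past the threshold in 9 of 19, the brighter Sirt6 probe in 5 of 19, and the dimmer Sirt6 probe, positive in all 18, passed as higher in 3. Sirt1 was positive in 18 of 19 and -0.0771 under median scaling. The adult minus young change of the distance between 2 probes ran from -0.45 to 0.17 for Sirt4 and from -0.11 to 0.77 for Sirt7, so neither change has a settled sign.

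The count of sirtuin probes past the threshold was 2 in the main setting. It was 6 under median scaling, under normexp and among probes well above background on all arrays, 5 with trend and robust moderation, and 4 in the series matrix and with 1 probe a gene. Leaving out 1 array gave 0 to 2. For all probes the count of 11370 became 7075 under quantile normalization, 17513 under normexp, 6555 with array row as a block, 6316 under cyclic loess and 388 to 10359 without 1 array. NAD+ metabolism had 4 genes in the main setting, 7 under median scaling, normexp and 1 probe a gene, 8 with trend and robust moderation, 2 with the row block and 0 to 4 without 1 array. Nuclear partners had 5, then 12 under median scaling, 1 with the row block and 0 to 2 without 1 array. Mitochondrial targets had 7, then 15 under median scaling, 13 under normexp, with trend and robust moderation and with the filter set to all arrays, 4 with the row block and 0 to 6 without 1 array. Zinc-dependent deacetylases had 3, then 7 under median scaling, 5 in the series matrix, 0 to 1 without 1 array, and 1 under quantile normalization, with the percentile taken over probes above background on all arrays, with no filter, with the row block and under cyclic loess. The cause of these moves was not tested. For the lists and the sirtuins the highest count without 1 array came without young replicate 2. Fewer samples enter each such fit.

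With replicate number as a block, 0 probes passed on the whole array, so the count was 0 for the sirtuins and for each list, and Sirt2 had an adjusted p of 0.0840. Same-numbered samples had correlations of deviations of -0.01, -0.09 and -0.13. Values for other pairs are not given here, so whether the numbers pair the samples cannot be told.

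Genes that did not pass turned sign as follows. Under quantile normalization Foxo3 was at 0.0832, Ptprc at -0.172 and Cd34 at 0.0447. Under median scaling Nampt was at -0.482, Ppargc1a at -0.0634 and Ptprc at -0.0515. In the series matrix Foxo3 was at 0.0283 and Cd34 at 0.0471. After cyclic loess Foxo3 was at 0.122, Ptprc at -0.0431 and Cd34 at 0.0715. Foxo3 was at 0.0874 with the percentile over probes above background on all arrays. Without 1 array Foxo3 ranged from -0.167 to 0.108 and Nampt from -0.204 to 0.225.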
